A study of Mus musculus with 18 samples.

Results

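The Agilent mouse gene expression array carried 16181 probes named only by a stretch of chromosome and a strand, out of 55681 non-control probes, and these interval probes were followed in the lungs of mice given a mixture of polycyclic aromatic hydrocarbons (PAHs). A probe was taken when its name began with A_30_P and its target was written as a chromosome interval ending in F or R, the strand letter. No interval came with a gene symbol in the files, so each is described here by its position in mouse genome build mm9. A further 70 probes of the same name series target named long non-coding RNAs or intervals without a strand letter and were not counted.

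All 18 mice were male MutaTMMouse of about 12 weeks, a transgenic strain that carries a bacterial lacZ reporter in every group, controls included. They were gavaged daily for 28 days with olive oil alone (the vehicle, 5 mice) or with the 4PAH-Mix in olive oil at 12.5 (low, 4 mice), 25 (medium, 5 mice) or 50 (high, 4 mice) mg BaP equivalents/kg-bw/day. The 4PAH-Mix combined benzo[a]pyrene (BaP), benz[a]anthracene, benzo[b]fluoranthene and chrysene, and lung was taken 72 h after the last gavage. Total RNA came from random pieces of each lung, was labelled with Cy5 and was hybridized against Cy3-labelled Universal Mouse Reference RNA, a pool from 11 mouse cell lines. Every level below is a log2 ratio of lung over this reference, normalized within the array, so 1 unit is a doubling and 0 means equal signal of lung and pool.

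Long intergenic non-coding RNAs (lincRNAs) are transcripts with no known protein product that arise between protein-coding genes. As a class they are known for low levels and for strong differences between tissues, and some act in the cell nucleus on chromatin, on splicing or on neighbouring genes. Arrays of this type tile candidate intervals with several probes and often place probes on both strands, because the strand that is copied into RNA may not be known when the array is designed. An interval probe therefore reports signal from a stretch of genome rather than from a defined transcript.

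The 16181 probes lay on chromosomes 1 to 19 and X, 8171 on the F strand and 8010 on the R strand. They fell into 3540 intervals, of which 1251 had probes on F alone, 1222 on R alone and 1067 on both strands, which made 4607 combinations of interval and strand. The median interval was 7315.5 bp long, with a range from 62 to 7128487 bp. Of the combinations, 3917 had more than 1 probe and 690 had a single one, with a median of 3 and at most 10. Probes of one interval and strand share a target and were read as repeated looks at it, not as replicates.

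Most interval probes gave no signal well above the local background in these lungs. In the 5 vehicle mice 4645 probes (28.7%) were well above background on every array, against 58.4% of the other 39500 non-control probes, and 8561 (52.9%) were above it on no vehicle array. By mouse, the share of interval probes above background ran from 30.2% to 43.7% over the 18 arrays, and that of all non-control probes from 51.5% to 61.1%. The groups overlapped in this share, which ran from 32.5% to 43.7% in vehicle and from 35.3% to 40.9% in high-dose mice. The 4 arrays of the last of 3 slides reached 36.3% to 43.7% and the other slides 30.2% to 37.4%. Among the probes above background in vehicle mice, the interval probes had a median log2 ratio of 0.17 with quartiles of -0.13 and 0.53, and the other probes a median of 0.10 with quartiles of -0.48 and 0.71.

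R-strand probes were above background more often than F-strand probes, at 31.2% against 26.2% in all vehicle mice, and the R share was the higher one in ranges too, from 33.1% to 47.4% by mouse against 27.4% to 40.2%. Of the 4607 combinations of interval and strand, 2330 (50.6%) had at least 1 probe above background in all vehicle mice. Where an interval was probed on both strands, signal was found on both in 385, on F alone in 203, on R alone in 252 and on neither in 227. By chromosome the share of probes above background ran from 20.8% on chromosome 9 to 35.1% on chromosome 19. By interval length it was 24.4% in the lowest quartile of length (62 to 785 bp), 32.7% in the next (788 to 7304 bp), 29% in the next (7327 to 21813 bp) and 27.8% in the longest. These shares were not tested against each other.

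The RNA was that of lung. All 9 lung marker genes, among them the surfactant genes Sftpc and Sftpb and the club cell gene Scgb1a1, were above background on every array, with vehicle log2 ratios of 3.12 to 7.66 over the reference pool. Of these 9, Pecam1 of endothelial cells rose at the high dose (0.74, adjusted p 0.000597). Of 7 genes of cytotoxic lymphocytes, 2 fell at the high dose, Gzma (-2.25) and Ccl5 (-1.54), and the mean log2 ratio of the list ran from 0.70 to 1.63 in vehicle, 0.50 to 1.12 in low, 0.60 to 1.11 in medium and 0.10 to 0.52 in high-dose mice. None of these 7 genes was below background on all 18 arrays. For B cells, T cells, neutrophils and pulmonary vein cardiomyocytes none of the 16 genes passed the call rule at the high dose, and in high-dose mice the list means ran from 1.40 to 1.67, 0.16 to 0.62, 3.89 to 4.85 and 0.53 to 3.21, against 0.49 to 1.45, 0.16 to 0.51, 3.04 to 4.27 and 0.47 to 3.24 in vehicle mice. The part of these cells in the interval results was not tested, and fewer cells of a type cannot be told apart from less RNA per cell in whole tissue.

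Exposure changed few interval probes, and most of those that changed fell. A probe was called when limma's moderated test gave a Benjamini-Hochberg adjusted p of 0.05 or less over all 55681 probes and the fold change was at least 1.5. At the low dose 3 interval probes rose and 3 fell, or 0.0185% in each direction, where 0.0647% of all probes rose and 0.0251% fell. At the medium dose 12 rose (0.0742%) and 41 fell (0.253%), where 0.278% of all probes rose and 0.447% fell. At the high dose 20 rose (0.124%) and 70 fell (0.433%), where 0.399% of all probes rose and 0.805% fell. In each dose comparison the share of interval probes called was thus below that of all probes in both directions. At an unadjusted p below 0.05, without a fold limit, 6.21%, 9.36% and 9.81% of interval probes differed from vehicle at low, medium and high dose, against 8.01%, 15.3% and 15.7% of all probes.

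The balance towards falls depended on the normalization within arrays. With each array centred on its median in place of loess, 12 interval probes rose and 2 fell at the high dose, 2 rose and none fell at the medium dose, and none was called at the low dose. All 70 falls stayed below vehicle on average in that setting, with a median log2 change of -0.49. They were chosen on the same arrays, which favours this. With the scanner software's ratios 53 rose and 107 fell at the medium dose and 9 rose and 2 fell at the low dose. With loess, all probes also leaned to falls at the high dose (0.399% rose and 0.805% fell). Shares of all probes were not set beside the counts in other settings. Whether the shift is particular to interval probes was therefore not tested.

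Calls were also compared with signal above background, which the main test did not require. All 90 probes called at the high dose were well above background on every array of the vehicle or of the high-dose group, as were 5137 interval probes in all. When only probes with such signal were tested, 20 interval probes rose (0.389% of 5137) and 71 fell (1.38%), where 0.785% of all 29178 probes with signal rose and 1.58% fell. The median log2 change at the high dose was -0.01 over all interval probes and 0.0027 over all probes. With signal required, the median was -0.04 over interval probes and 0.01 over other probes. Whether these medians differ was not tested.

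Sizes of change were modest. The 20 rises at the high dose had log2 changes from 0.59 to 1.37 with a median of 1.08, and the 70 falls from -0.59 to -0.95 with a median of -0.67. By mouse, the median change of the 20 risen probes from the vehicle mean ran from 0.44 to 0.63 in low, 0.59 to 0.90 in medium and 0.75 to 1.15 in high-dose mice, so the low and medium ranges overlapped, as did medium and high. For the 70 fallen probes it ran from -0.55 to -0.33 in low, -0.65 to -0.52 in medium and -0.78 to -0.55 in high-dose mice. As these probes were chosen at the high dose, their high-dose medians are a description. Mean changes grew from low to medium to high dose in 17 of the 20 risen and 60 of the 70 fallen probes. The choice at the high dose favours this order, so these counts are a description too.

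Of the 102 interval probes called at 1 or more doses, 41 were called in the same direction at medium and high dose, 12 higher and 29 lower, and 49 were called at the high dose alone. The medium dose alone called 12, all lower, and each of these was also below vehicle on average at the high dose. No probe was called at the low dose alone, and none was called in opposite directions at different doses. All comparisons share the 5 vehicle mice, so their calls are not independent.

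The channels were also fitted apart. In the Cy3 signal of the reference pool, fitted alone, the high-dose log2 changes of the 20 risen probes ran from -0.18 to 0.13 with a median of 0.0040, and those of the 70 fallen probes from -0.46 to 0.27 with a median of 0.0072. In the Cy5 signal alone the changes ran from 0.47 to 1.31 with a median of 0.998 for the risen probes and from -1.01 to -0.24 with a median of -0.65 for the fallen ones, and 52 of the 90 passed the call rule. Taken within each of the 3 slides, the difference between high-dose and vehicle mice had the called sign in all 3 for 89 of the 90 probes. The probes were called on these same mice, which favours such agreement, so the count is a description. On every slide the dose groups stood in fixed columns, so column and dose cannot be told apart.

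Rises were concentrated in few places and falls were spread out. The 20 risen probes came from 10 intervals, or 8 separate loci once overlapping intervals of the same strand were joined, on 6 chromosomes. The 70 fallen probes came from 55 intervals and 52 loci. Chromosome 1 held 8 of the risen probes, all from 1 locus, chromosomes 4 and 17 held 4 each, chromosome 3 held 2, and chromosomes 11 and X held 1 each. Falls were most numerous on X, with 8 probes in 8 intervals, and on chromosome 3, with 7. Most of those on X lay close together, with interval starts from 120353972 to 122623597. These neighbours were dim, with mean log2 intensities of 6.50 to 6.79, and whether they are separate transcripts was not tested. Chromosomes 8 and 18 held no called interval probe at the high dose among 1021 and 571 probes. The highest share called was 1.86% on chromosome 19, where all 6 probes lay in 1 locus.

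**Figure D1:**
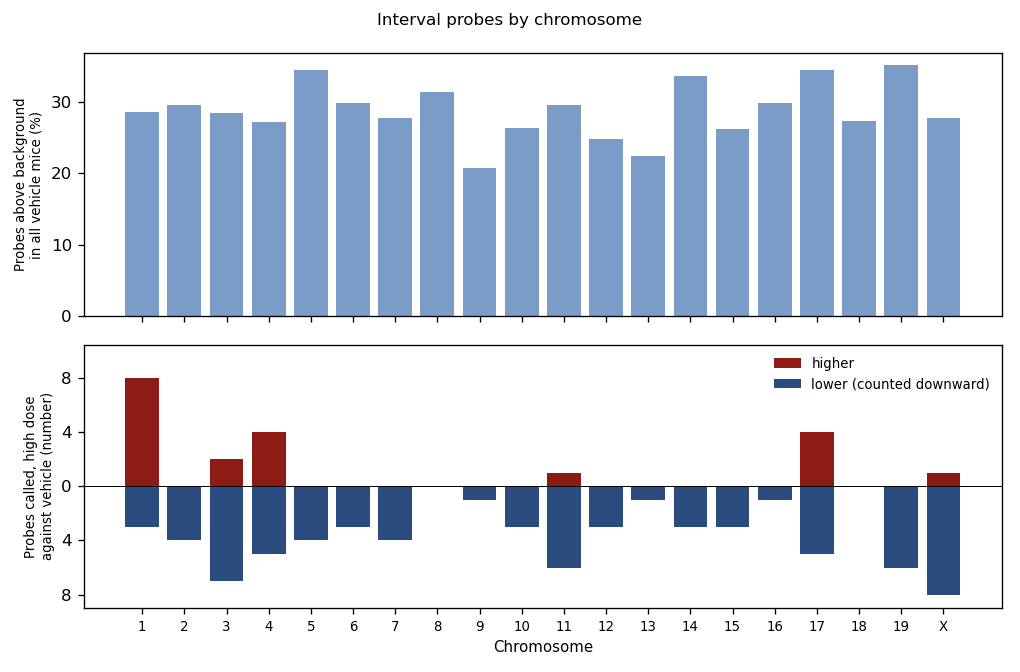
The upper bars give, for each chromosome, the percentage of interval probes well above background in all 5 vehicle mice, and the lower bars the number of interval probes called at the high dose, higher upward and lower downward. Risen probes appear on 6 chromosomes only, with 8 on chromosome 1, while falls appear on most, with 8 on X.

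By strand, 15 of the 20 risen probes and 37 of the 70 fallen probes were on F. As shares of each strand's probes, rises were 0.184% of F and 0.0624% of R, and falls 0.453% of F and 0.412% of R. The 15 risen F probes came from 6 loci, so the count of probes overstates the number of places. At the medium dose 9 of 12 risen and 24 of 41 fallen probes were on F. The median log2 change at the high dose was -0.01 on F and -0.01 on R. A difference between strands was not tested.

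The opposite strand of the same interval was compared at the high dose. Of the 20 risen probes 10, and of the 70 fallen probes 34, came from intervals that also had probes on the other strand, and in none of these was an opposite-strand probe called in either direction. Over all interval probes only 0.556% were called at the high dose, so this count by itself says little about strand. Around the risen chromosome 17 interval, for example, all 5 opposite-strand probes lacked signal.

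The largest rise was on the F strand of chromosome 1, at chr1:163508244-163586072. Probe A_30_P01026536 read -0.90, -0.96, -0.82, -0.71 and -0.97 in the 5 vehicle mice, and -0.26, -0.08, -0.17 and -0.09 in the 4 low-dose mice. It read 0.23, 0.15, 0.25, 0.25 and 0.24 in the medium-dose mice and 0.68, 0.30, 0.75 and 0.25 in the high-dose mice. No low-dose mouse overlapped the vehicle mice, and each dose lay above the one below it, with the high-dose mice the most spread (SD 0.26, n = 4, against 0.11 in vehicle, n = 5). Its log2 change was 0.72 at the low dose (SE 0.09, limma adjusted p 0.000578), 1.096 at the medium dose (SE 0.09, adjusted p 2.44e-07) and 1.37 at the high dose (SE 0.09, adjusted p 1.23e-08), or 2.58-fold. Within the slides the high-dose difference was 1.42, 1.52 and 1.22.

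The other probes of that locus moved the same way. The interval holds 5 F-strand probes, and 3 shorter F-strand intervals lie inside it, chr1:163527603-163527999, chr1:163528200-163528398 and chr1:163528792-163529312. Of the 12 probes, 8 were called higher at the high dose and all 12 were above vehicle on average, with log2 changes from 0.19 to 1.37. The lowest value came from A_30_P01021998, which was above background on no array. In chr1:163528200-163528398, a stretch of 199 bp, all 3 probes were called, and its A_30_P01029956 rose by 1.12 (SE 0.10, adjusted p 9.8e-07). Its vehicle mice read -0.44 to -0.25 with a median of -0.41, and its high-dose mice 0.59 to 1.07. In chr1:163527603-163527999 1 of 3 probes was called, A_30_P01026167, with a log2 change of 0.80 (SE 0.09, adjusted p 2.78e-05). For A_30_P01026167 the 4 high-dose mice read 0.45 to 0.85 and the 5 vehicle mice -0.26 to 0.03. The 5 R-strand probes of the long interval had log2 changes of -0.11 to 0.16 and none was called, though 4 of them lacked signal.

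On the R strand of chromosome 17, chr17:29183003-29217681 was the interval with called probes at all 3 doses in the upward direction besides the one on chromosome 1. Probe A_30_P01027010 read -0.54, -0.46, -0.57, -0.55 and -0.52 in vehicle mice and 0.44, 0.26, 0.07 and 0.44 in low-dose mice. In medium-dose mice it read 0.41, 0.61, 0.60, 0.54 and 0.56, and in high-dose mice 0.87, 0.56, 0.64 and 0.86. All 13 exposed mice lay above all vehicle mice, and each dose group overlapped the next. The log2 changes were 0.83 (SE 0.09, adjusted p 2.7e-05), 1.07 (SE 0.08, adjusted p 8.33e-08) and 1.26 (SE 0.09, adjusted p 1.18e-08) from low to high dose. In vehicle mice this probe was above background on 3 of 5 arrays.

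A_30_P01020960 of the same interval was more variable among exposed mice. It ran from -0.79 to -0.42 in vehicle, -0.02 to 0.76 in low, 0.10 to 0.89 in medium and 0.18 to 1.08 in high-dose mice, so the 3 dose groups overlapped each other and none overlapped vehicle. The log2 changes were 0.98 (adjusted p 0.0248), 1.14 (adjusted p 0.000505) and 1.28 (SE 0.18, adjusted p 0.000188). A_30_P01022991 was called at medium and high dose (0.68 and 0.77). The interval's other 2 R-strand probes had log2 changes of 0.58 (A_30_P01022528, adjusted p 0.00668, under the fold limit) and 0.29 (A_30_P01025320, above background on 1 of 18 arrays), and all 5 F-strand probes lacked signal. A shorter R-strand interval inside it, chr17:29192453-29216073, had changes of 0.45 and 0.34 on its 2 probes, neither called.

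A set of 5 probes named lincP21 in the files, a name used for a p53-induced long non-coding RNA, carries no interval in its name and was not counted among the interval probes. Whether it targets the same RNA as the chromosome 17 interval was not tested. None was above background on every array of the vehicle or the high-dose group, and their log2 changes at the high dose ran from -0.20 to 0.43 with none called.

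**Figure D2:**
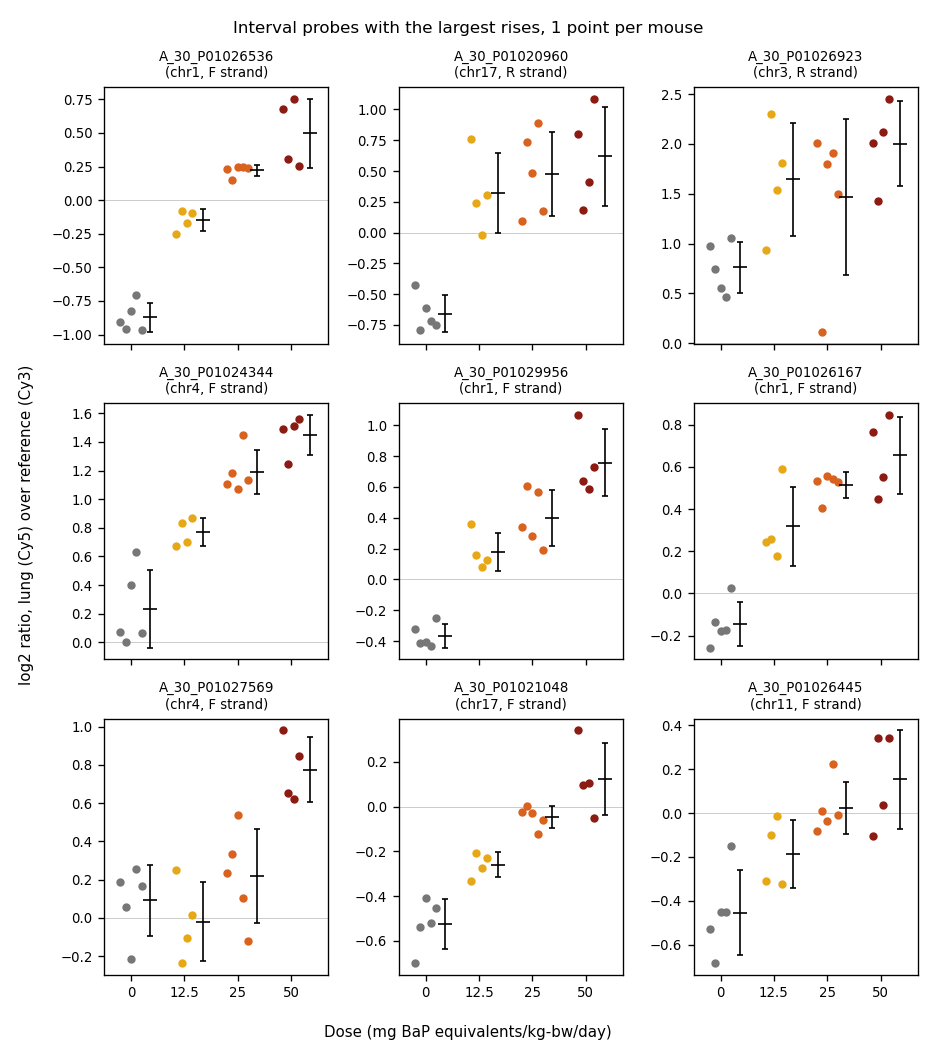
Each panel gives one of the 9 intervals with the largest rises, as log2 ratio of lung over reference against dose, with 1 point per mouse and the mean and SD of each group in black. In all 9 panels the 4 high-dose mice lie above the 5 vehicle mice, which was a condition of the choice. A_30_P01026923 shows 1 medium-dose mouse at 0.11, below the vehicle mice.

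The short interval chr4:149445201-149445902 on the F strand, 702 bp long, rose stepwise with dose on all 3 of its probes. A_30_P01024344 read 0.07, 0.00, 0.40, 0.63 and 0.07 in vehicle mice, 0.67, 0.83, 0.70 and 0.87 in low, 1.11, 1.18, 1.07, 1.45 and 1.13 in medium and 1.49, 1.25, 1.51 and 1.56 in high-dose mice. Low-dose mice stood just above the highest vehicle mouse, and medium and high overlapped. Its log2 change was 0.54 at the low dose (adjusted p 0.0625), 0.96 at the medium dose (SE 0.11, adjusted p 3.64e-05) and 1.22 at the high dose (SE 0.12, adjusted p 1.73e-06). The other probes, A_30_P01025511 and A_30_P01032002, reached 1.201 and 1.16. A longer interval around it, chr4:149383134-149451259, had 4 F-strand probes with log2 changes of only -0.05 to 0.14, 2 of them with signal.

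In chr3:121627545-121639470 on the R strand, A_30_P01026923 had a high-dose change of 1.24 that rested on widely scattered mice. The vehicle mice read 0.98, 0.75, 0.55, 0.46 and 1.06, the low-dose mice 0.93, 2.30, 1.54 and 1.81, the medium-dose mice 2.01, 0.11, 1.80, 1.91 and 1.499, and the high-dose mice 2.01, 1.43, 2.11 and 2.45. Its SE was 0.31 and its adjusted p 0.0218, and mouse 12 of the medium group was lower than every vehicle mouse. The call was lost without any one of mice 16, 18 or 20 (adjusted p 0.0631, 0.061 and 0.0759) and without vehicle mouse 3 or 4 (adjusted p 0.0502 and 0.0503). A second probe of the interval was also called (1.202) and the third had a change of 0.21 without signal.

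Smaller rises came from intervals with a single called probe. A_30_P01027569 in chr4:3169583-3180017 (F) was flat up to the medium dose, with means of 0.09 ± 0.18 (SD, n = 5) in vehicle, -0.02 ± 0.21 (n = 4) in low and 0.22 ± 0.25 (n = 5) in medium mice, and stood at 0.78 ± 0.17 (n = 4) in high-dose mice. Its high-dose log2 change was 0.69 (SE 0.13, adjusted p 0.00244) and its 2 sister probes lacked signal. A_30_P01021048 in chr17:71183978-71185384 (F) was well above background on no vehicle array, 1 low, 3 medium and all 4 high-dose arrays. Set against the lowest signal that counted as above background, it was at least 1.33-fold higher in high-dose mice, a bound that was not tested. Its log2 change in the limma fit was 0.65 at the high dose (adjusted p 4.62e-05). The 2 sister probes of A_30_P01021048 were also higher, at 0.49 and 0.55, with 1 of them above background and neither called. A_30_P01026445, the only F-strand probe of chr11:19778600-19815950, rose by 0.61 (SE 0.11, adjusted p 0.00234), close to the fold limit, and its call was lost without vehicle mouse 2 or high-dose mouse 17 or 20, when the change was 0.54 to 0.55. The remaining risen probe, on X in chrX:138966975-138981525 (F), had a log2 change of 0.59 at the high and 0.81 at the medium dose. The high-dose value was close to the fold limit. Its 4 sister probes, 2 with signal, were all below vehicle on average, from -0.17 to -0.03 at the high dose.

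High and low dose were also compared with each other, to see which probes rose further with dose. The difference passed the call rule for 6 interval probes, all higher (0.0371%, where 0.0359% of all probes were higher), from 4 intervals, and 5.67% of interval probes had an unadjusted p below 0.05 in limma, against 6.71% of all probes. They were A_30_P01026536 (difference 0.65, SE 0.10, adjusted p 0.0135), A_30_P01024344 (0.68, adjusted p 0.0375), A_30_P01032002 (0.72, adjusted p 0.0202), A_30_P01027569 (0.80, adjusted p 0.0237) and both called probes of chr2:128142035-128142481 on the R strand. This short list was fragile: leaving out low-dose mouse 6 or 7 left 1 higher probe, leaving out high-dose mouse 16 left none of the 6 and 1 lower probe, and leaving out high-dose mouse 20 left 3.

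The chromosome 2 interval showed no change at the low dose. A_30_P01027743 read -0.67, -0.77, -0.67, -0.67 and -0.67 in vehicle, -0.81, -0.73, -0.76 and -0.74 in low, -0.24, -0.45, -0.58, -0.37 and -0.44 in medium and -0.04, -0.25, -0.17 and -0.18 in high-dose mice. Vehicle and low-dose mice overlapped, and the medium and high-dose mice were all above both. Its difference of high from low dose was 0.60 (SE 0.08, adjusted p 0.00165), while its change against vehicle, 0.53 at the high dose (adjusted p 0.000145), stayed under the fold limit. A_30_P01026716 of the same 447 bp had a difference of 0.60 (adjusted p 0.0151) and a change against vehicle of 0.57.

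Probes with signal were counted by sign in each interval that held a called probe. Of the 10 risen intervals 8 had more than 1 probe with signal and 5 had more than 1 called probe. Of their 26 probes with signal 24 were above vehicle on average, which includes the 20 called probes, and 2 were not. Of the 55 fallen intervals 42 had more than 1 probe with signal but 9 had more than 1 called probe. Of their 150 probes with signal 137 were below vehicle on average, which includes the 70 called probes, and 13 were not. No interval held probes called in opposite directions. Since these intervals were chosen by a called probe, the counts describe them and were not tested.

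**Figure D3:**
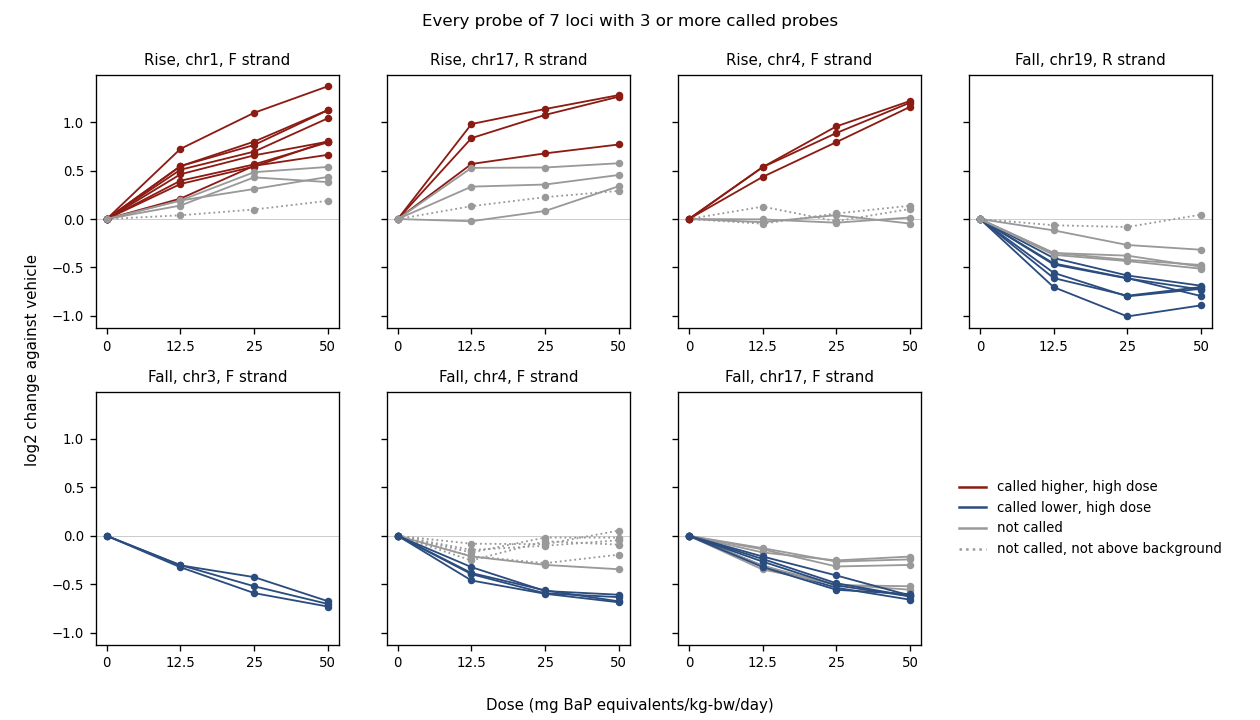
Each line is 1 probe, drawn as its mean log2 change from vehicle against dose, in the 7 loci with 3 or more called probes; red and blue mark probes that the high dose raised or lowered past the call rule, and dotted lines lacked signal. All 12 probes of the chromosome 1 locus rise and all 3 probes of the chromosome 3 locus fall, while in the chromosome 4 rise only the 3 probes of the short interval depart from 0.

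On the R strand of chromosome 19, all 3 probes of chr19:5798135-5800557, 2423 bp long, were called lower at the medium and high dose. The brightness of its probes was high, with mean log2 intensities of 12.92 to 13.68. A_30_P01020935 read 2.05, 2.15, 2.03, 2.28 and 2.31 in vehicle mice and 1.68, 1.42, 1.49 and 1.26 in low-dose mice. It read 1.00, 1.27, 1.49, 1.03 and 1.00 in medium and 1.27, 1.13, 1.17 and 1.53 in high-dose mice. All exposed mice lay below all vehicle mice, and the 3 dose groups overlapped one another. The log2 change was -0.70 at the low dose (SE 0.11, adjusted p 0.00719), -1.005 at the medium dose (SE 0.11, adjusted p 1.18e-05) and -0.89 at the high dose (SE 0.11, adjusted p 5.83e-05), so the mean fell no further from medium to high dose. A_30_P01021078 was also called at all 3 doses (-0.61, -0.79 and -0.70).

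The same strand of chromosome 19 fell over a longer stretch. In chr19:5801802-5802597 all 3 probes fell at the high dose, by 0.69, 0.73 and 0.79 on the log2 scale, and they were among the brightest interval probes, with mean log2 intensities of 14.70 to 17.20. Here the low and medium mice overlapped the vehicle mice: A_30_P01031754 ran from 2.45 to 3.00 in vehicle, 1.95 to 2.58 in low, 1.76 to 2.68 in medium and 1.72 to 2.14 in high-dose mice. In chr19:5834117-5835940 the 3 probes had changes of -0.47 to -0.51, with adjusted p-values of 0.0347 to 0.133, and none passed the fold limit. The probes of chr19:5771425-5848475, which spans all of these, were at 0.05 and -0.32 on the R strand, the first without signal. Its 10 F-strand probes were all below vehicle on average, from -0.85 to -0.06 at the high dose, where none was called. At the medium dose 1 of them, A_30_P01020677, was called lower (-0.93, adjusted p 0.0467; -0.85 at the high dose, adjusted p 0.0876). Probes the files name NEAT2 and NEAT1, long non-coding RNAs of nuclear bodies, were also above background. The 3 NEAT2 probes had log2 changes of -0.31 to -0.25 and the 5 NEAT1 probes -0.30 to -0.14, and none was called. Whether these named RNAs and the chromosome 19 intervals are the same transcripts was not tested, since no gene positions of build mm9 were used here.

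The single largest fall was that of A_30_P01032942, in chr4:94742359-94822969 on the F strand. Vehicle mice read 1.13, 1.04, 1.14, 1.32 and 1.00, low-dose mice 0.48, 0.62, 0.60 and 0.37, medium-dose mice 0.10, 0.12, 0.50, 0.11 and 0.41 and high-dose mice -0.06, -0.01, 0.44 and 0.34. Every exposed mouse was below every vehicle mouse, and the medium and high groups overlapped. The log2 change was -0.61 (SE 0.11, adjusted p 0.0247), -0.88 (SE 0.10, adjusted p 6.43e-05) and -0.95 (SE 0.11, adjusted p 2.78e-05) from low to high dose. The only other probe of the interval had signal and a change of 0.02.

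The next largest falls were alike in size. A_30_P01019885 in chr14:65433420-65434061 (R) stood at 1.46 ± 0.14 (SD, n = 5) in vehicle and 0.56 ± 0.21 (n = 4) in high-dose mice, a change of -0.89 (adjusted p 0.000171). A_30_P01032068 in chrX:50400250-50410825 (R) stood at 0.80 ± 0.12 and -0.10 ± 0.19, also a change of -0.89 (adjusted p 0.000209). A_30_P01026230 in chr2:31714946-31716972 (F), A_30_P01024297 in chr6:121035216-121035648 (R) and A_30_P01020476 in chrX:18744367-18853992 (F) had changes of -0.89, -0.88 and -0.87. These 3 probes ran almost in parallel, with vehicle means of 1.05, 1.03 and 1.04 and high-dose means of 0.16, 0.15 and 0.17, although they lie on different chromosomes. Smaller changes were found for A_30_P01022343 in chr7:86651948-86675223 (F, -0.86), A_30_P01025354 in chr7:16584852-16657252 (F, -0.84) and A_30_P01025536 in chr11:97505439-97522274 (F, -0.81). The largest rises and falls were named only where high-dose and vehicle mice did not overlap, so that separation is no result. Over all interval probes, 4.67% showed no overlap between these groups. When arrays were centred on the median instead, the leading probes of these 10 intervals and A_30_P01021078 all lost their call, with changes of -0.42 to -0.77 and limma adjusted p-values of 0.227 to 0.794.

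**Figure D4:**
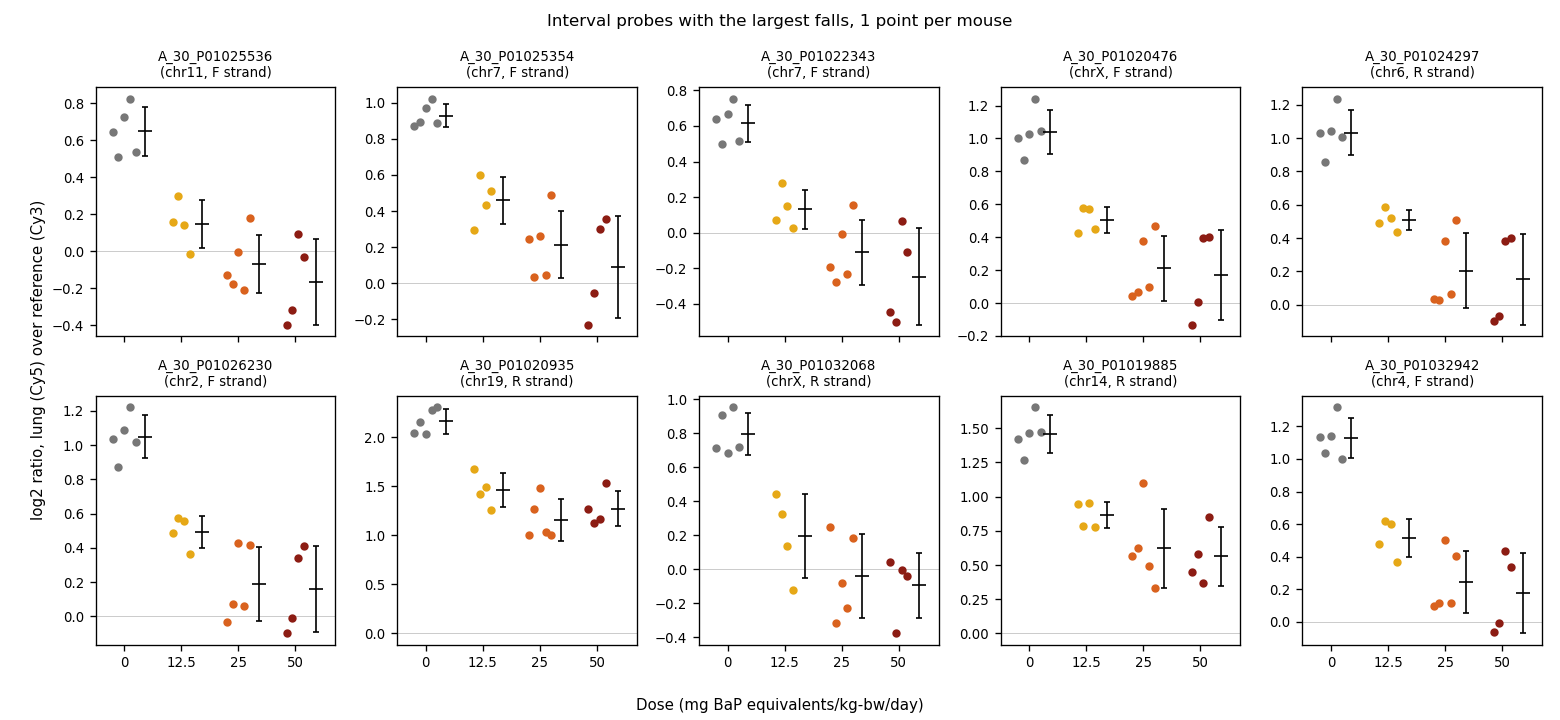
Each panel gives one of the 10 intervals with the largest falls, as log2 ratio of lung over reference against dose, with 1 point per mouse and the mean and SD of each group in black. All high-dose mice lie below all vehicle mice in each panel, which was a condition of the choice. The low-dose means lie between, and in several panels 2 of the 4 high-dose mice are clearly lower than the others.

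For 9 of these 10 intervals no sister probe on the same strand was called, the exception being the one on chromosome 19. The sister probes of A_30_P01025354 ran from -0.35 to 0.08 at the high dose, 6 of 9 with signal, and those of A_30_P01025536 from -0.24 to 0.16, 4 of 9 with signal. Most of these falls thus rested on 1 probe of the interval.

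A set of fallen probes also moved together from mouse to mouse. When the 70 fallen probes were grouped by the correlation of their deviations from the group means, the largest group held 21 probes from 21 intervals on 13 chromosomes, 14 on F and 7 on R, and the next largest held 10. Groups were cut at a mean correlation within the group of at least 0.6, so a high correlation inside a group follows from the cut. The median correlation between pairs of the 21 was 0.78 over the 18 arrays, against 0.13 over all pairs of fallen probes. All arrays share 1 reference RNA, and the grouping was made after the values were seen, so it is a description.

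The probes of this group were bright, with mean log2 intensities of 8.60 to 14.48. They include A_30_P01032942, A_30_P01026230, A_30_P01024297, A_30_P01020476, A_30_P01022343, A_30_P01025354 and A_30_P01025536. Their median change from the vehicle mean was -0.91 in high-dose mice 16 and 17 but -0.44 and -0.58 in mice 18 and 20. Among medium-dose mice it was -0.68, -0.80, -0.57, -0.79 and -0.40 in mice 11 to 15, and among low-dose mice -0.51, -0.25, -0.43 and -0.51 in mice 6, 7, 9 and 10. In vehicle mice 1 to 5 it was 0.0045, -0.03, 0.04, 0.12 and -0.09. The dose groups overlapped one another, and all exposed mice lay below the vehicle mice.

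The 2 lowest high-dose mice were both on the first slide, where the medium-dose mice read -0.68 and -0.80. On the second slide the high-dose mouse read -0.44 and the medium-dose mice -0.57 and -0.79, and on the last slide they read -0.58 and -0.40. The part of the slide in this spread was not tested. Of the 100 sister probes in the same 21 intervals, 30 had signal, none was called, and those 30 had a median change of -0.07 with a range from -0.55 to 0.29.

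**Figure D5:**
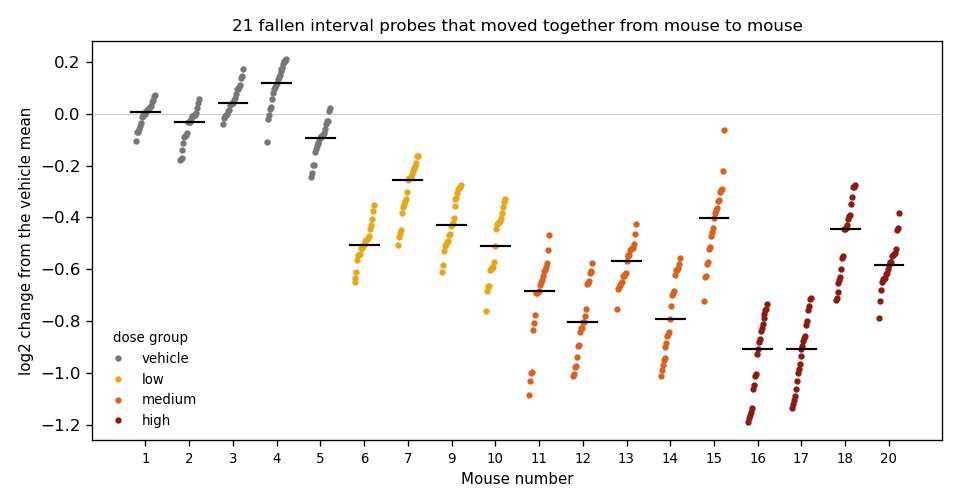
Points are the 21 fallen probes that moved together, drawn for each of the 18 mice as the log2 change from the mean of the vehicle mice, with the median in black. Mice 16 and 17 have the lowest medians (-0.91) and mouse 7 the highest of the exposed mice (-0.25), and the vehicle mice stay between -0.24 and 0.21.

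A few further intervals fell on several probes; they were picked out after their values were seen. In chr3:146515333-146557069 (F) all 3 probes fell at the high dose, by 0.67, 0.70 and 0.73 on the log2 scale (adjusted p 0.00228, 0.000562 and 0.000235), from vehicle means of 1.99 to 2.27. The medium-dose mice of A_30_P01031360 were closely bunched (1.74 to 1.83) inside the wider range of the vehicle mice (1.70 to 2.48). In chr4:126710640-126721240 (F) 4 of 10 probes were called, with changes of -0.61 to -0.69. Another probe with signal was at -0.34 and the other 5 lacked signal.

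On the F strand of chromosome 17, the overlapping intervals chr17:39960567-39992817, chr17:39982023-39983277 and chr17:39983902-39985688 held 10 probes, of which 5 were called lower, with changes of -0.60 to -0.66. All 10 were below vehicle on average and very bright, with mean log2 intensities of 12.21 to 16.15. Whether so bright a signal comes from an intergenic RNA or from an abundant RNA of another kind was not tested. Their mean vehicle levels ran from -1.38 to 0.18, with 1 of the 10 probes (A_30_P01020015) above the reference pool. Of the 70 fallen probes, 64 stood above the pool in vehicle mice. Choosing falls favours a high vehicle level, and interval probes with signal in vehicle mice already had a median of 0.17. In these chromosome 17 intervals the low and medium mice overlapped the vehicle mice: A_30_P01023029 ran from -0.91 to -0.53 in vehicle, -1.31 to -0.69 in low, -1.59 to -0.79 in medium and -1.51 to -1.19 in high-dose mice.

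Some falls, also picked out after their values were seen, did not follow dose. In chr15:32167516-32174427 (R) 3 probes were called at the medium dose alone, with changes of -0.63 to -0.76 there and of -0.38 to -0.40 at the high dose. In chr5:15146475-15170100 (F) 2 probes were at 0.31 and 0.33 at the low dose, were called at the medium dose (-0.61 for each) and were at -0.22 and -0.29 at the high dose. In chr4:82156098-82196298 (R) 2 probes were called at the medium dose (-0.86 and -0.90) and had similar means at low (-0.78 and -0.80) and high dose (-0.70 and -0.73) without being called there.

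Long non-coding RNAs that the array names gave a reference for these intervals. Of a list of 40 such RNAs, 25 had a probe and 22 were above background on all 18 arrays, and by its brightest probe none passed the call rule at the high dose, with a median log2 change of -0.05 against 0.0027 over all probes. Of the 8 probes of Tug1, 1 did pass, with a change of -0.73, while the brightest was at 0.09. Lists of genes known to respond to PAHs, and of clock genes, were read in the same mice, where 0.399% of all probes rose and 0.805% fell at the high dose. Of 34 p53 target genes, 1 of them (Pvt1) also in the list of long non-coding RNAs, 16 rose and none fell, with Cdkn1a, which arrests the cell cycle, at 2.47 (SE 0.13, adjusted p 2.08e-10). Of 13 repressors and outputs of the circadian clock 7 rose, among them Dbp at 2.22. Of 6 genes listed as clock activators 1 rose and 2 fell. Those that fell were Arntl (-1.59) and Nfil3 (-0.82), the latter known as a repressor. Of 9 targets of the aryl hydrocarbon receptor 2 rose.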

How the data were processed

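Lung RNA of 18 mice was measured on 2-colour Agilent arrays, 1 array per mouse, without dye swaps. The authors deposited, per array, median signal intensities of both channels and their local background from Feature Extraction 11.0.1.1 (build mm9, per the file headers), unnormalized, with the scanner software's log10 ratio of Cy5 over Cy3. A series-wide table deposited by the authors holds log2 ratios. Set against the values computed here it had slopes of 0.998 to 0.999 and column medians of -0.03 to -0.02, so scale and direction were settled.

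Following the study's methods, log2 ratios of median intensities without background subtraction were normalized by loess within arrays in R 4.3.3 with limma 3.58.1. Outlier spots had no weight, control spots were left out and spots of a probe were averaged. A total of 86 probes, 24 of them interval probes, lacked a value on some array and were fitted on the rest. All 4 groups entered 1 limma fit, which stands in for MAANOVA (not run), with Benjamini-Hochberg adjustment over 55681 probes per comparison and a fold limit of 1.5. The steps were tested on simulated data. Replicates are separate mice; no 2 arrays held identical ratios, and correlations between arrays were 0.937 to 0.974. The precision of array values is limited by the number of mice, 4 or 5 per group.

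Named probes were the intervals with the 10 largest rises and falls at the high dose among called probes without overlap between high-dose and vehicle mice (9 rises qualified), those called at all 3 doses in the same direction, and those called in high against low dose, 24 in all. The members and lists were chosen with earlier results of these data known. Intervals were not matched to neighbouring genes, since no gene coordinates of build mm9 were used here, and no probe sequences were used here. Genes were named through a RefSeq table, which matched 27235 probes, and a gene with several probes is represented by its brightest.

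Other settings tried were normexp with offset 50 (on median signals, as the files used hold no mean signal), the scanner software's ratios, the deposited table, median centring, scale and Aquantile normalization, Cy5 alone, slide as a block, dim probes left out, adjustment over the 3 doses together, no fold limit, only the groups compared, each mouse left out in turn and, chosen after seeing the data, the last slide left out.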

Additional observations from a re-analysis of the deposited data

Results flagged for a closer look

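Of 96 groups of 4 or 5 mice, over the 24 named probes, 4 held a mouse far from the others by Dixon's ratio, where chance flags about 1 in 20 groups. In 3 of them it was medium-dose mouse 12, with the lowest value. A_30_P01026923 read 0.11 in this mouse, with the next medium-dose mouse at 1.499. A_30_P01026536 read 0.15 against 0.23 in the next mouse, and A_30_P01026167 0.40 against 0.53. In the vehicle group A_30_P01027743 read -0.77 in mouse 2, against -0.67 in the next.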

How the results depend on the processing

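All 90 interval probes called at the high dose kept their sign under the 7 other normalizations, with slide as a block, without the last slide and without each vehicle or high-dose mouse. The probes were called on these same arrays, which favours kept signs, so this count is a description. How many passed the call rule depended on the setting, and the counts below were not compared with shares of all probes. Median centring in place of loess left 14 at the high dose (12 higher and 2 lower, against 20 and 70), 2 at the medium dose (both higher) and none at the low dose or for high against low dose. The cause was not tested. With the scanner software's ratios 233 were called at the high dose, 160 at the medium (53 higher and 107 lower, against 12 and 41) and 11 at the low dose (9 higher and 2 lower, against 3 and 3), but 3 for high against low dose. At the low dose the split also moved with normexp (3 higher, 5 lower), the scale normalization (3 and 2), the deposited table (3 and 1) and Cy5 alone (3 called, none lower). With no fold limit 354, 274 and 16 were called at high, medium and low dose. Adjusting over the 3 doses together gave 10 at the low dose. Without the last slide 2 were called at the low dose and 2 for high against low dose. Leaving out 1 mouse gave 70 to 103 calls at the high, 43 to 72 at the medium and 3 to 8 at the low dose, the lowest without high-dose mouse 16, medium-dose mouse 11 and low-dose mouse 10. For high against low dose it gave 1 to 7, with 1 without low-dose mouse 6, low-dose mouse 7 or high-dose mouse 16. The median change over all interval probes moved to 0 at the low dose and -0.0200 at the medium dose with the scanner software's ratios, and to -0.0152 (medium) and -0.0183 (high) with median centring. For the 24 named probes, 416 alternative values stayed on the same side of the call rule, 31 lost the call and 9 gained it. Signs did not change, which the choice of these probes on the same arrays favours. Aquantile normalization leaves the ratios as they are. No paired analysis was possible because mouse numbers were not shared between groups, so slide served as the block, which gave 93, 57, 5 and 6 calls at high, medium and low dose and for high against low dose.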
